A study of Mus musculus with 4 samples.

Results

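Genes of glucose uptake, glycolysis, pyruvate entry and the citric acid cycle were examined in mouse long-term haematopoietic stem cells, the marrow cells that sustain blood formation. The members were 34 listed genes, taken by symbol with no filter on expression, and 32 of them had a row among the 25206 rows of the value table, in which each row stands for a single Entrez gene. Gapdh and Eno1 were the other members and have no value here. Before transplantation, cells of the phenotype Lin- ckit+ Sca+ were given 0, 0.02, 0.1 or 0.5 Gy of γ-irradiation. The hosts of all 4 doses, 0 Gy included, were lethally irradiated mice, and 6 months later the Flk2-, CD48- and CD150+ fraction of the same phenotype was sorted from their bone marrow for RNA. Each dose was hybridised to 1 array, so no dose has a replicate and differences between single arrays carry no test. The labels give no donor marker in the gate, no strain, no age of the mice and no number of mice per array.

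Glycolysis splits glucose into pyruvate in the cytosol. Pyruvate is then either reduced to lactate or carried into mitochondria, where the pyruvate dehydrogenase complex turns it into acetyl-CoA, which feeds the citric acid cycle. The pyruvate dehydrogenase kinases switch that complex off by phosphorylation. Long-term haematopoietic stem cells are known for a low mitochondrial activity and a reliance on glycolysis, which hypoxia-inducible factors and pyruvate dehydrogenase kinases support. Several enzymes of these pathways exist as isozymes encoded by separate genes, and these are described side by side below.

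Of the 32 measured genes, 5 differed from 0 Gy by at least 1.5-fold at 1 or more doses. The median range of a member over the 4 arrays, 0.31 log2 units, was close to the 0.30 of all named genes. A difference of 1.5-fold (0.58 on the log2 scale) was used as a fixed size for naming genes, and Pdk2 and Pdk4 fell just short of it at 0.5 Gy. Aldoc, the gene of the brain-type aldolase, and Pgam1, the gene of a phosphoglycerate mutase, were at least 1.5-fold higher than at 0 Gy on all 3 irradiated arrays. Slc2a3, a glucose transporter gene, and Ldhb, which encodes the heart-type lactate dehydrogenase subunit, were higher by this measure at 0.02 Gy. Pfkp, the gene of the platelet-type phosphofructokinase, was lower at 0.5 Gy. No gene of pyruvate entry or of the citric acid cycle among the members reached 1.5-fold at any dose.

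The promoter windows of 4 of these 5 genes, and of Ldha, are shown. Ldha hardly varied and had exactly equal values on several arrays. The genes which stood apart can thus be read beside a flat gene of the same pathway. Each window runs from 250 bases before to 50 bases after an annotated transcription start, 5′ to 3′ on the strand of the gene, from RefSeq on build GRCm38.p6. Capitals mark matches, on either strand, to ACGTG (the core of the hypoxia response element), CACGTG (the E-box of MYC and MAX, which contains ACGTG) or TGTTTAC (a forkhead box O motif). Aldoc has a pair of annotated starts, with windows at chr11:78322823-78323122 and chr11:78323948-78324247 on the plus strand. Ldha also has a pair, at chr7:46845554-46845853 and chr7:46846832-46847131 on the plus strand, of which the upstream one is shown. The window of Pgam1 lies at chr19:41911621-41911920 on the plus strand, and those of Ldhb and Pfkp at chr6:142507908-142508207 and chr13:6648722-6649021 on the minus strand.
Aldoc, upstream start: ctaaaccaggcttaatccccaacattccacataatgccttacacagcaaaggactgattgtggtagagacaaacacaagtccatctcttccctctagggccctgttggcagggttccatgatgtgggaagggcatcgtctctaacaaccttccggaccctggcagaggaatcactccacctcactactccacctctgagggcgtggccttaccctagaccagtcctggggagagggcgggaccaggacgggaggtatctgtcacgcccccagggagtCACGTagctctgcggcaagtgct
Aldoc, downstream start: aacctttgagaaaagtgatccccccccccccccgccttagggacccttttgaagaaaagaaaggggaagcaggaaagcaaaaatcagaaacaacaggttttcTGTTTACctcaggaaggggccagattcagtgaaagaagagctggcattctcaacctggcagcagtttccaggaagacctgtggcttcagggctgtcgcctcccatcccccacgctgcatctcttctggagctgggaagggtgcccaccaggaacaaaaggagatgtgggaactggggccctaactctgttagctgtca
Pgam1: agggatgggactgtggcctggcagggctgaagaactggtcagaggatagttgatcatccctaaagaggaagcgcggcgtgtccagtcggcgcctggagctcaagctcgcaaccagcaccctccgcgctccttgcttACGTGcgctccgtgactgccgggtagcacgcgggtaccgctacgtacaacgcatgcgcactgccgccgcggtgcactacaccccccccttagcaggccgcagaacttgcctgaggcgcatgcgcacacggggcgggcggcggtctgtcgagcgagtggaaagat
Ldhb: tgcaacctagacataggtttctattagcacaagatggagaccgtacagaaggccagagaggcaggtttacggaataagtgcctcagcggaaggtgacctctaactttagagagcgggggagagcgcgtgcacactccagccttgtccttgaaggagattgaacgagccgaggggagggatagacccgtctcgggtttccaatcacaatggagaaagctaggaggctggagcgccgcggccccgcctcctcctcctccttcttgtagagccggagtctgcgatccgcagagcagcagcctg
Pfkp: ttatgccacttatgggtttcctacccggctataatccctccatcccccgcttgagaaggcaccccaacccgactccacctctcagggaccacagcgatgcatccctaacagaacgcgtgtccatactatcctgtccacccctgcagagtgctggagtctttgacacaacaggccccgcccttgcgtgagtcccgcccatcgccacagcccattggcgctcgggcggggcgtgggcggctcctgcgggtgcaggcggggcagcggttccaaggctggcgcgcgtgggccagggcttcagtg
Ldha, upstream start: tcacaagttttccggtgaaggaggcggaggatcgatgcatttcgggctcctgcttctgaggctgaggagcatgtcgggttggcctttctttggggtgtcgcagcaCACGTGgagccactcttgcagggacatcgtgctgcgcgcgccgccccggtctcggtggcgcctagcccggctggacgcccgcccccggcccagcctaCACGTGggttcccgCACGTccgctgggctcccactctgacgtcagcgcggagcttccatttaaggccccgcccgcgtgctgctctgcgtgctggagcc
The upstream window of Aldoc held 1 ACGTG match and the downstream window 1 TGTTTAC match. Pgam1 held 1 ACGTG match, and the windows of Ldhb and Pfkp held 0 of any of the motifs. The upstream window of Ldha held 5 ACGTG matches, which include those inside 2 CACGTG sites, each counted on both strands, and its downstream window held 0 of any of the motifs. Over all members, 30 of the 32 measured genes had a window, and ACGTG was found in 14 of them (46.7%), against 21.8% of all 27025 genes with a window. CACGTG was found in 4 members (13.3%), against 8.09% of genes, and TGTTTAC in 1 (3.33%), against 4.05%. Member windows were richer in G and C, with a median of 60.7% over 47 windows against 52.7% over all 32851. A match describes the letters only, and both flat and differing genes carried ACGTG.

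On the whole table, the 4 arrays had median log2 intensities between 4.01 and 4.07. Values were often exactly equal between arrays: 57.4% of the 23740 named genes had at least 1 equal pair and 6.76% had the same value on all 4. Among the members, 16 of 32 had an equal pair, and 2, Pfkm and Suclg1, were equal on all 4. The level that splits all gene means at their median was 4.07, and 28 members had a mean at or above it. Aldoa, Pgam1, Eno2 and Pdk4 lay below, so the size of their differences is uncertain. Mature transcripts of several glycolytic genes resemble processed pseudogenes, and how the authors' probe sets treated shared probes is not given in the sources used here. As a look at the sorted identity, 14 marker genes of long-term stem cells had a mean log2 value of 8.14, 8.59, 7.78 and 7.98 at 0, 0.02, 0.1 and 0.5 Gy. Flt3, which encodes the Flk2 receptor that the gate excludes, had 4.46, 4.76, 5.44 and 4.76 in that order. It was above the level of 4.07 on every array and highest at 0.1 Gy. Cd48, for the CD48 that the gate also excludes, is not described here.

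Of the 32 members, 4 (12.5%) exceeded their 0 Gy value by 1.5-fold or more at 0.02 Gy and 0 were that much lower, beside 4.58% and 4.29% of all named genes. At 0.1 Gy, 2 (6.25%) were higher and 0 lower, beside 4.01% and 4.97%. At 0.5 Gy, 2 (6.25%) were higher and 1 (3.12%) was lower, beside 4.36% and 5.40%. The 4 higher members at 0.02 Gy are a count with no test behind it. Brighter genes crossed this size more often: of the 11870 genes at or above the level of 4.07, 12.6%, 13.0% and 14.2% did so in either direction at 0.02, 0.1 and 0.5 Gy. Of the 28 members at or above that level, 3 (10.7%), 1 (3.57%) and 2 (7.14%) did so, a smaller share than among all genes of that brightness at each dose. These counts are small and untested, and the comparisons share the 0 Gy array. The median difference of the members was 0.00, 0.00 and -0.07 at 0.02, 0.1 and 0.5 Gy, and that of all named genes was 0.00 at each dose. Over the 4 arrays the median range of a member was 0.31 log2 units, beside 0.30 for all named genes and 0.41 for the brighter ones.

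**Figure D1:**
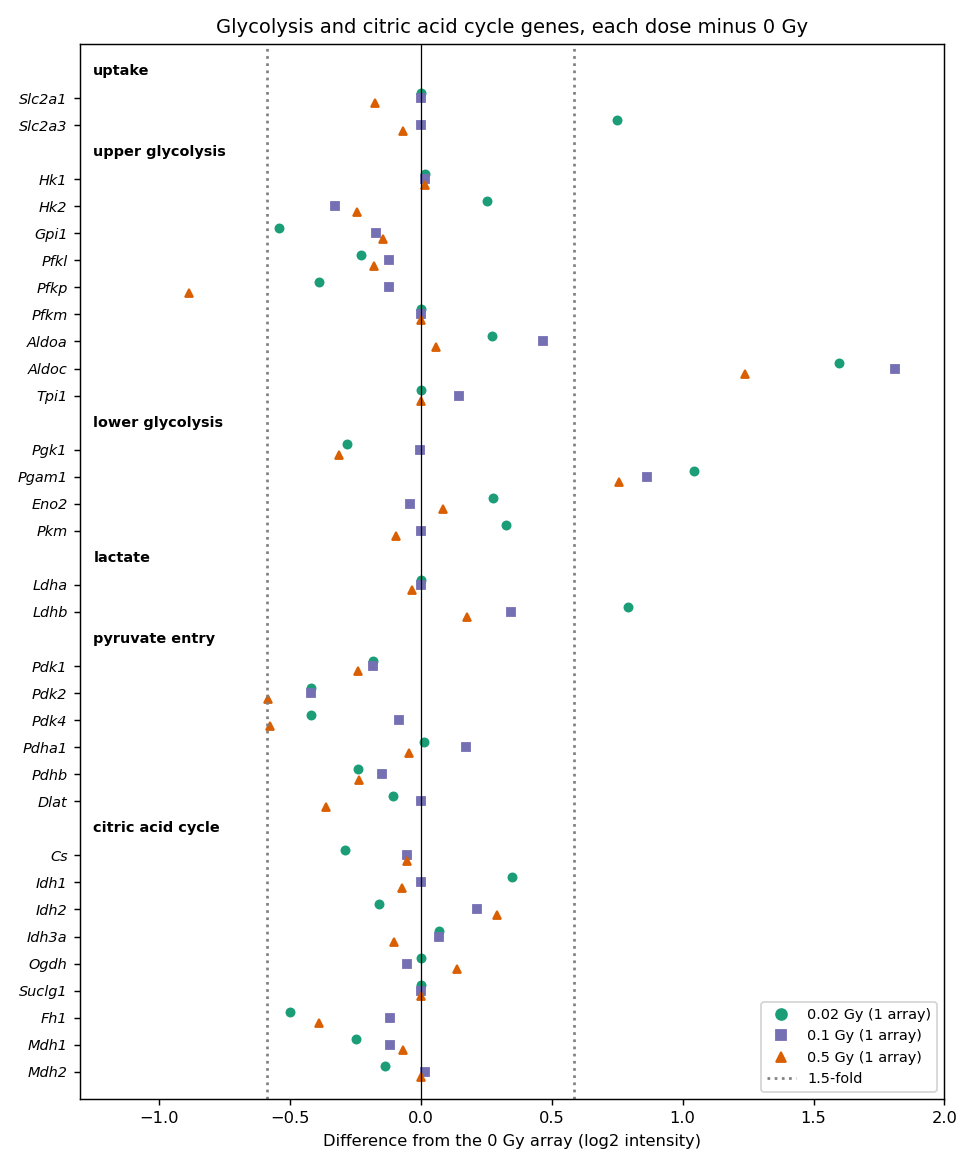
Difference of each irradiated array from the 0 Gy array, in log2 intensity, for the 32 measured genes in the order of the pathway. Each point is 1 array against 1 array with no error, and the dotted lines mark 1.5-fold. Aldoc and Pgam1 lie right of the line at all 3 doses, Slc2a3 and Ldhb at 0.02 Gy, and Pfkp lies left of it at 0.5 Gy.

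Glucose enters blood cells through facilitative transporters. Slc2a1, the transporter known as GLUT1, had a log2 value of 8.74 at 0, 0.02 and 0.1 Gy and of 8.56 at 0.5 Gy. Slc2a3, known as GLUT3, had log2 values of 6.69, 7.44, 6.69 and 6.63 in the order 0, 0.02, 0.1 and 0.5 Gy. For Slc2a3 the 0.02 Gy array thus stood alone, 1.68-fold above 0 Gy and 1.76-fold above 0.5 Gy, while the other arrays lay within 0.07 of each other. Slc2a1 had exactly the same value on 3 of the 4 arrays.

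Hexokinases trap glucose in the cell as glucose 6-phosphate. Hk1, the broadly expressed isozyme, had 8.03 at 0 Gy and 8.04 on each of the irradiated arrays. Hk2, the inducible isozyme, had 7.37, 7.63, 7.05 and 7.13 in that order. Hk2 was highest at 0.02 Gy and lay below 0 Gy on the other irradiated arrays, with a difference of -0.58 between 0.1 and 0.02 Gy. Gpi1, which encodes the isomerase that converts glucose 6-phosphate to fructose 6-phosphate, had 11.03, 10.48, 10.86 and 10.88 at 0, 0.02, 0.1 and 0.5 Gy. Its lowest value was at 0.02 Gy, at a difference of -0.54 from 0 Gy.

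Phosphofructokinase catalyses the committed step of glycolysis and is built from liver (Pfkl), platelet (Pfkp) and muscle (Pfkm) subunits. Pfkp had 7.49 without irradiation and 7.10, 7.37 and 6.60 after 0.02, 0.1 and 0.5 Gy. The 0.5 Gy value was 1.85-fold below 0 Gy and 1.70-fold below 0.1 Gy, and all irradiated arrays were below 0 Gy. Pfkl had 7.29, 7.06, 7.17 and 7.11 in the same order of dose, also below 0 Gy on each irradiated array but by at most 0.23. Pfkm had 5.09 on all 4 arrays.

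Aldolase cleaves fructose 1,6-bisphosphate into triose phosphates. Aldoc had 4.66 without irradiation and 6.25, 6.47 and 5.90 after 0.02, 0.1 and 0.5 Gy. Every irradiated array was above 0 Gy, by 3.02-fold, 3.51-fold and 2.36-fold, and the range of 1.81 was the widest of the 32 measured members. The irradiated arrays themselves had an SD of 0.29 for Aldoc. Aldoa, the muscle-type aldolase gene that is also active in most other tissues, had 2.08, 2.35, 2.54 and 2.14 at 0, 0.02, 0.1 and 0.5 Gy, all below the level of 4.07. Tpi1, which encodes triose phosphate isomerase, had 8.78 at 0, 0.02 and 0.5 Gy and 8.93 at 0.1 Gy.

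The later steps of glycolysis recover ATP. Pgam1 had 2.49 without irradiation and 3.53, 3.35 and 3.25 after 0.02, 0.1 and 0.5 Gy, which is 2.06-fold, 1.82-fold and 1.69-fold above 0 Gy. All of these values lie below the level of 4.07. Pgk1, the gene of phosphoglycerate kinase, had 6.57, 6.29, 6.57 and 6.26 at 0, 0.02, 0.1 and 0.5 Gy, so that 0.02 and 0.5 Gy were lower than the other arrays by about the same amount. Eno2, the neuronal enolase gene, lay between 3.17 and 3.49. Pkm, which encodes the pyruvate kinase of most tissues, had 10.24, 10.57, 10.24 and 10.15, and was highest at 0.02 Gy with a difference of 0.33.

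Lactate dehydrogenase interconverts pyruvate and lactate and is assembled from A and B subunits. Ldha had 9.76 at 0, 0.02 and 0.1 Gy and 9.72 at 0.5 Gy. Ldhb had 7.59 without irradiation and 8.38, 7.94 and 7.77 after 0.02, 0.1 and 0.5 Gy. All irradiated values of Ldhb were above 0 Gy, by 1.73-fold at 0.02 Gy, and the 0.02 Gy value was also 1.53-fold above 0.5 Gy.

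The spread over the arrays differed within several isozyme families: Slc2a3 (0.82) beside Slc2a1 (0.18), Hk2 (0.58) beside Hk1 (0.02), Ldhb (0.79) beside Ldha (0.03), and Pfkp (0.89) beside Pfkl (0.23) and Pfkm (0.00). It also differed for Aldoc (1.81) beside Aldoa (0.47), and for Pdk2 and Pdk4 (0.58 each) beside Pdk1 (0.24). The ranges were closer for Idh1 (0.42) and Idh2 (0.45), and for Mdh1 (0.25) and Mdh2 (0.15). These ranges are log2 differences between arrays for each gene and not levels of a gene against another. Slc2a1, Hk1 and Ldha each had exactly the same value on 3 of the 4 arrays, and Pfkm on all 4. Their narrow ranges thus rest on repeated values, and how such repeats arose is not given in the sources used here.

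**Figure D2:**
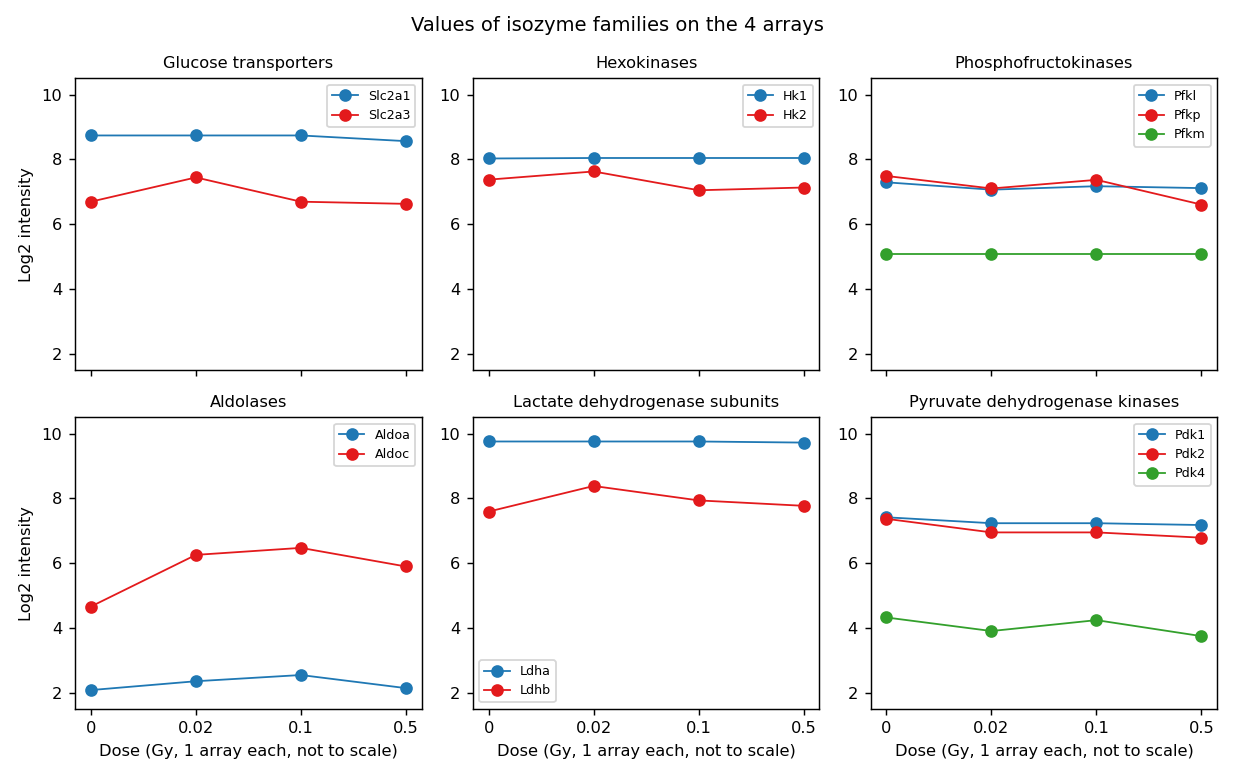
Log2 intensity of 6 isozyme families on the 4 arrays, which are joined by lines only to guide the eye, with doses not to scale. Each point is 1 array, and vertical positions should be compared within a gene only. Aldoc lies between 5.90 and 6.47 on the irradiated arrays and at 4.66 at 0 Gy, while Ldha, Hk1 and Pfkm are nearly level. These level genes, and Slc2a1, had exactly equal values on several arrays.

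At the entry of pyruvate into mitochondrial oxidation, values leaned below 0 Gy. All 6 members of this step were below 0 Gy at 0.5 Gy, with a median difference of -0.30, 5 of 6 at 0.02 Gy (median -0.21) and 4 of 6 at 0.1 Gy (median -0.11). At 0.5 Gy the count of 6 of 6 was the same under quantile normalization, median centring and cyclic loess. For comparison, 41.6%, 38.5% and 41.0% of all named genes were below 0 Gy at 0.02, 0.1 and 0.5 Gy, as were 45.6%, 45.9% and 47.4% of those at or above the level of 4.07, where 5 of these 6 members lie. The comparisons at the 3 doses share the single 0 Gy array, so their counts are not independent of each other.

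The largest differences of this step, at 0.5 Gy, were those of a pair of kinase genes. Pdk2 had 7.37 at 0 Gy, 6.95 at both 0.02 and 0.1 Gy and 6.79 at 0.5 Gy, a difference of -0.58 at 0.5 Gy that lies just short of 1.5-fold. Pdk4, the kinase induced by fasting, had 4.32, 3.90, 4.24 and 3.74 at 0, 0.02, 0.1 and 0.5 Gy, with differences of -0.42, -0.08 and -0.58. Pdk1, a hypoxia-induced kinase, had 7.42 at 0 Gy, 7.23 at 0.02 and 0.1 Gy and 7.18 at 0.5 Gy. All 3 kinase genes were highest at 0 Gy and lowest at 0.5 Gy, and each irradiated value of theirs was below 0 Gy. Of the catalytic subunits, Pdhb, the E1 beta subunit gene, had 8.14 at 0 Gy and 7.90, 7.99 and 7.90 on the irradiated arrays, whereas Pdha1, the E1 alpha subunit gene, lay between 7.65 and 7.86. Dlat, the E2 acetyltransferase gene, had 6.47, 6.37, 6.47 and 6.11.

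The differences of the 9 citric acid cycle genes from 0 Gy ran from -0.50 to 0.35 at 0.02 Gy, from -0.12 to 0.21 at 0.1 Gy and from -0.39 to 0.29 at 0.5 Gy. Fh1, which encodes fumarate hydratase, had the widest range of these genes, with 8.85, 8.35, 8.73 and 8.46 in the order of dose. All irradiated values of Fh1 were below 0 Gy.

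Cs, which encodes citrate synthase, the entry enzyme of the cycle, had 8.99, 8.70, 8.93 and 8.93 at 0, 0.02, 0.1 and 0.5 Gy. Mdh1, the cytosolic malate dehydrogenase gene, had 9.38, 9.13, 9.26 and 9.31, and Mdh2, its mitochondrial counterpart, had 10.73, 10.59, 10.75 and 10.73. These genes and Fh1 had their lowest value at 0.02 Gy. Idh2, the mitochondrial NADP-dependent isocitrate dehydrogenase gene, had 9.24, 9.08, 9.45 and 9.53, also lowest at 0.02 Gy but above 0 Gy at the higher doses. Idh1, its cytosolic counterpart, had 6.81, 7.16, 6.81 and 6.74, and so was highest at 0.02 Gy. Idh3a, a subunit of the NAD-dependent enzyme, Ogdh, the E1 subunit of the 2-oxoglutarate dehydrogenase complex, and Suclg1, the alpha subunit of succinyl-CoA ligase, had ranges of 0.17, 0.19 and 0.00.

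The array that held the extreme value was counted for each gene, a count chosen after the values were seen. The 0.5 Gy array alone was lowest for 13 of 32 members (40.6%), where it was for 21.4% of named genes. The 0.02 Gy array was lowest for 8 (25.0%, beside 22.6%), the 0 Gy array for 5 (15.6%, beside 18.5%) and the 0.1 Gy array for 3 (9.38%, beside 18.0%). The 0 Gy array alone was highest for 11 members (34.4%), where it was for 20.0% of named genes. The 0.02 Gy array was highest for 7 (21.9%, beside 17.7%), the 0.1 Gy array for 5 (15.6%, beside 20.4%) and the 0.5 Gy array for 2 (6.25%, beside 19.8%). Tied genes count for neither extreme, and ties were rarer among brighter genes. At 0.5 Gy, 1639 of the 11870 genes at or above the level of 4.07 equalled 0 Gy, against 5055 of all 23740. Since 28 members lie at or above that level, the shares of all named genes may be too low a baseline. Shares among the brighter genes were not counted. Many of these gaps are small: at 0.5 Gy, 20 members were below 0 Gy, 8 above and 4 equal, at a median of -0.07. Below 0 Gy under quantile normalization, median centring and cyclic loess were 20, 20 and 21 members. The balance at 0.02 Gy, with 12 above and 14 below, depended on the scaling: 17 were above and 15 below under quantile normalization and under cyclic loess, and 10 above and 22 below under median centring.

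**Figure D3:**
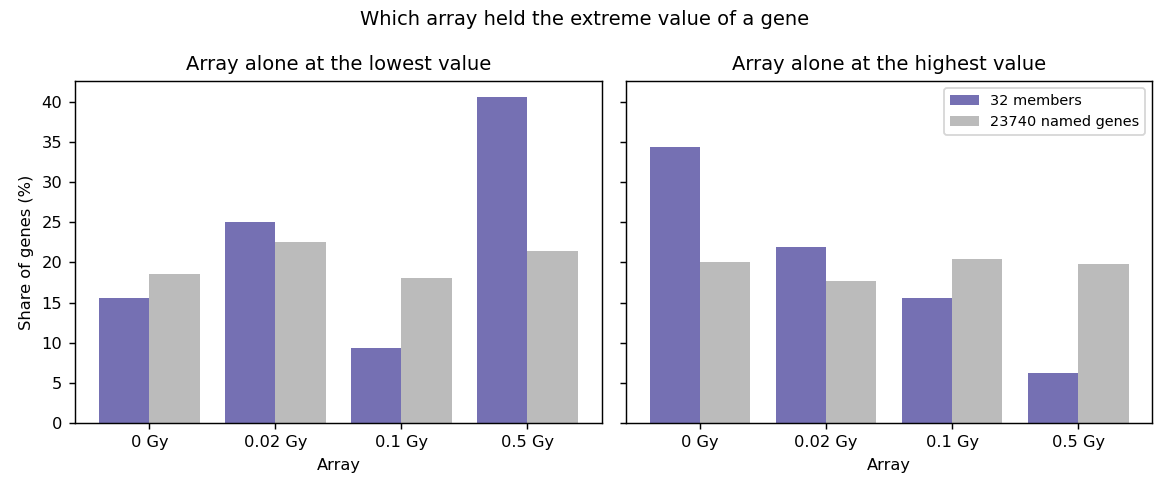
Share of genes, in percent, for which an array alone held the lowest (left) or highest (right) of the 4 values, for the 32 members and for all 23740 named genes. Genes whose extreme value was shared by arrays count for neither. All named genes include dim ones, in which equal values were more common than in brighter genes. The 0.5 Gy array was lowest for 40.6% of members and 21.4% of named genes.

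Between the irradiated arrays, Slc2a3 was the 1 member at least 1.5-fold apart at 0.1 against 0.02 Gy, where 9.60% of named genes were. Slc2a3 and Ldhb (2 of 32) were apart at 0.5 against 0.02 Gy, beside 9.85% of genes, and Pfkp (1 of 32) at 0.5 against 0.1 Gy, beside 8.50%. At all 3 doses, Aldoc and Pgam1 (2 of 32) were at least 1.5-fold above 0 Gy, as were 0.977% of named genes. These 3 differences share the 0 Gy array.

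A test over arrays was possible only by pooling doses. The 3 irradiated arrays were set against the 0 Gy array with limma over all 23740 named genes, with 2 residual degrees of freedom and the lone 0 Gy array assumed to vary like the others. It called 0 of 32 members at an adjusted p of 0.05, and 0.880% of named genes (209). Of those 209, 151 had exactly the same value on all 3 irradiated arrays. At an unadjusted p under 0.05 there were 5 members, beside 11.8% of named genes. They were Pgam1 (log2 difference 0.89, SE 0.15, limma adjusted p = 0.217, higher on 3 of 3 irradiated arrays), Aldoc (1.55, SE 0.30, limma adjusted p = 0.259, higher on 3 of 3), Pdk1 (-0.20, SE 0.04, limma adjusted p = 0.229, lower on 3 of 3), Pdk2 (-0.47, SE 0.10, limma adjusted p = 0.283, lower on 3 of 3) and Pdhb (-0.21, SE 0.05, limma adjusted p = 0.392, lower on 3 of 3).

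A straight line in dose was fitted in the same way. It called 0 members and 0% of named genes, while 2 members, Slc2a1 and Dlat, and 13.6% of named genes had an unadjusted p under 0.05. The slope of Slc2a1 was -0.37 log2 units per Gy (SE 0.06, limma adjusted p = 0.219). That of Dlat was -0.67 (SE 0.18, limma adjusted p = 0.332). Slc2a1 had exactly the same value at 0, 0.02 and 0.1 Gy, so its slope rests on the 0.5 Gy array. Dlat had equal values at 0 and 0.1 Gy. Equal values lower an SE, and in the fit against 0 Gy, Pdk1 and Pdk2 had equal values at 0.02 and 0.1 Gy. Pfkp, which had the lowest value at 0.5 Gy, had a slope of -1.50 (SE 0.47, limma adjusted p = 0.403).

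Other genes of these pathways, from lists written beside the members, are described next. Of all named genes, 4.58%, 4.01% and 4.36% were at least 1.5-fold higher at 0.02, 0.1 and 0.5 Gy. The shares at least 1.5-fold lower were 4.29%, 4.97% and 5.40%. Of 35 further genes of glucose transport, glycolysis and lactate handling, 0, 1 and 2 were higher by 1.5-fold or more at 0.02, 0.1 and 0.5 Gy and 1, 3 and 1 lower, with medians of 0.00, 0.00 and -0.02. Pfkfb3, which makes the activator of phosphofructokinase, had 5.98, 5.66, 4.88 and 5.86 at 0, 0.02, 0.1 and 0.5 Gy. Slc16a1, the lactate transporter MCT1, had 6.61, 6.30, 7.05 and 7.37, and Ldhd, the D-lactate dehydrogenase gene, had 5.91, 6.06, 5.31 and 4.62. Adpgk, also on this list, had 6.08, 6.45, 7.15 and 6.20. Pfkfb3 was thus low at 0.1 Gy alone, where Adpgk was highest, and Slc16a1 and Ldhd were at opposite extremes at 0.5 Gy.

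Of 9 further genes of pyruvate entry, 1 was lower by 1.5-fold or more at each dose and 0 were higher. It was Pdp1, the phosphatase that reverses the action of the kinases, with 7.27, 6.39, 6.20 and 5.87 in the order of dose. The values of Pdp1 stepped down with dose, and its differences (-0.87 and -1.07 at the lower doses) were larger than those of any of the 3 kinase members. Mpc2, a subunit of the mitochondrial pyruvate carrier, had 8.04, 7.61, 7.80 and 7.90. Of these 9 genes, 6, 2 and 6 were below 0 Gy at 0.02, 0.1 and 0.5 Gy and 1, 2 and 1 above. Their medians were -0.18, 0.00 and -0.14, so the lean of the 6 members was not seen in this list at 0.1 Gy. Of 21 further citric acid cycle genes, 1, Idh3b, was lower at 0.02 Gy and 0 crossed 1.5-fold at the other doses. Idh3b, a subunit of NAD-dependent isocitrate dehydrogenase, had 9.81, 8.98, 9.29 and 9.29. Got1 had 7.15, 6.91, 7.57 and 7.19, and Got2 had 9.16, 8.96, 9.44 and 9.49, both above 0 Gy at 0.1 and 0.5 Gy. D2hgdh had 4.91, 4.41, 4.80 and 4.41. The medians of that list were -0.14, -0.06 and -0.03, with 16, 14 and 13 of 21 genes below 0 Gy.

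The pentose phosphate pathway branches off at glucose 6-phosphate and yields NADPH. Of its 10 genes, 1 was at least 1.5-fold higher at 0.5 Gy, Taldo1 (transaldolase), with 7.65, 7.64, 7.85 and 8.29, and 0 crossed that size at the other doses. Of 11 genes of gluconeogenesis and glycogen, 0 crossed it at 0.02 and 0.1 Gy and 1 was higher at 0.5 Gy.

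Regulators of these enzymes lay on both sides of 0 Gy. Of 23 hypoxia response genes, 3, 1 and 0 were higher by 1.5-fold or more at 0.02, 0.1 and 0.5 Gy. At these doses 3, 4 and 2 were lower, and the medians were 0.02, 0.00 and 0.04. Of all named genes, 4.58%, 4.01% and 4.36% were higher by that size and 4.29%, 4.97% and 5.40% lower. The level of 4.07 was reached by 20 of the 23. Among all genes at or above it, 12.6%, 13.0% and 14.2% crossed that size in either direction. Hif1an and Egln1, which encode oxygen-dependent hydroxylases that restrain hypoxia-inducible factors, had 5.69, 4.96, 4.17 and 5.34, and 7.12, 6.51, 6.20 and 6.81. Both were lower than 0 Gy on every irradiated array and lowest at 0.1 Gy. Egln3, a further hydroxylase gene of the same family as Egln1, had 6.52, 6.52, 7.01 and 5.99, and so was highest at 0.1 Gy. Ddit4, a hypoxia- and stress-induced inhibitor of mTOR signalling, had 6.08, 6.79, 4.95 and 5.94.

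Of 27 regulators of glycolysis and mitochondria, 1 was higher by 1.5-fold or more at each dose. At 0.02, 0.1 and 0.5 Gy, 1, 3 and 4 were lower by that size, beside 4.29%, 4.97% and 5.40% of all named genes. The shares of all named genes that were higher by that size were 4.58%, 4.01% and 4.36%. Of the 27 regulators, 24 lie at or above the level of 4.07, where larger shares crossed. Among the 11870 genes there, 738, 890 and 982 were lower by that size and 758, 653 and 703 higher. The higher gene was Tfb2m, a mitochondrial transcription factor gene, with 2.90, 6.98, 3.96 and 4.99. Its values at 0 and 0.1 Gy lie below the level of 4.07, so the size of its differences is uncertain. Prkaa1, the catalytic subunit of the energy sensor AMPK, had 8.17, 7.43, 7.66 and 6.82. Mycn, a MYC family transcription factor gene, had 7.83, 7.62, 6.49 and 6.49. Prkaa1 was thus below 0 Gy on each irradiated array, and Mycn was low at 0.1 and 0.5 Gy.

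**Figure D4:**
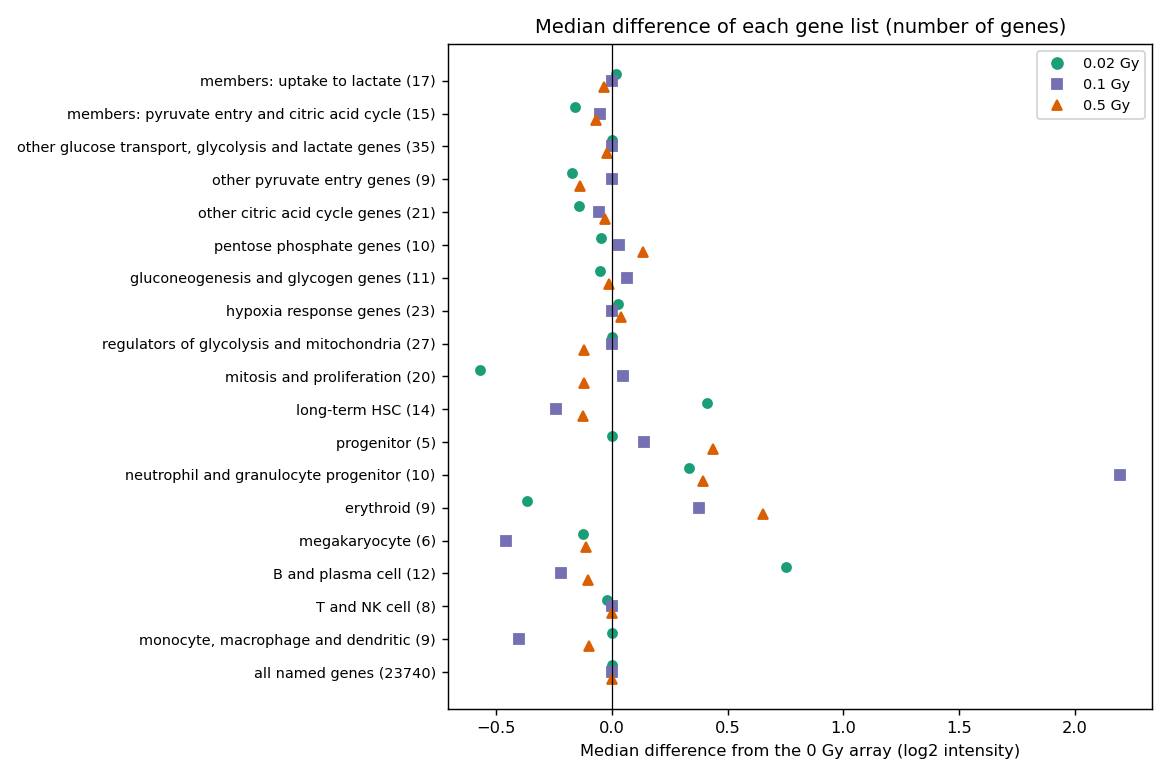
Median difference from the 0 Gy array, in log2 intensity, for the members split at pyruvate, the other lists of energy metabolism and lists of cell type and cell division markers, with the number of genes measured in each. Each point is a median over genes of 1 array against 1 array. The metabolic lists as drawn lie between -0.18 and 0.13, while the mitosis list is at -0.57 at 0.02 Gy and the granulocyte list at 2.20 at 0.1 Gy. The 6 pyruvate entry members, drawn with the 9 of the citric acid cycle, had medians of -0.21, -0.11 and -0.30 on their own at 0.02, 0.1 and 0.5 Gy.

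Several lists of cell type markers and of cell division had medians further from 0 on the same arrays. For scale, 4.58%, 4.01% and 4.36% of all named genes were at least 1.5-fold higher at 0.02, 0.1 and 0.5 Gy. The shares at least 1.5-fold lower were 4.29%, 4.97% and 5.40%. Among genes at or above the level of 4.07, 12.6%, 13.0% and 14.2% crossed that size in either direction. Fewer cells of a type cannot be told apart from less RNA per cell. The 14 markers of long-term stem cells shifted too, with medians of 0.41, -0.24 and -0.13 at 0.02, 0.1 and 0.5 Gy. By 1.5-fold or more, 5 exceeded 0 Gy and 0 fell short of it at 0.02 Gy. These counts were 0 and 5 at 0.1 Gy, and 1 and 2 at 0.5 Gy. The 9 monocyte, macrophage and dendritic genes had medians of 0.00, -0.40 and -0.10 in the order of dose. Of these 9, 4 were lower by that size at 0.1 Gy and 0 higher, and 3 had a mean below the level of 4.07. At 0.02 Gy, where Slc2a3, Ldhb and Pkm were highest and Gpi1, Fh1, Cs and Mdh1 lowest, all 20 mitosis and proliferation genes were below 0 Gy, with a median of -0.57 and 9 at least 1.5-fold lower. On that array 6 of 12 B and plasma cell genes were at least 1.5-fold higher, with a median of 0.75. The summed intensity of the B and plasma cell list was 1601, 3005, 909 and 724 at 0, 0.02, 0.1 and 0.5 Gy. At 0.1 Gy, where Aldoc was highest, all 10 neutrophil and granulocyte progenitor genes were above 0 Gy, 6 of them by at least 1.5-fold. The summed intensity of these 10 genes was 325, 689, 1201 and 617 in the order of dose. At 0.5 Gy, where Pfkp and the 3 kinase genes were lowest, 8 of 9 erythroid genes were above 0 Gy, 6 of them by at least 1.5-fold. The summed intensity of the 9 genes was 3210, 2450, 3564 and 4540. Log2 intensities have no value that stands for absence, but 4 of the 12 B and plasma cell genes, 4 of the 10 neutrophil and granulocyte progenitor genes and 1 of the 9 erythroid genes had a mean below the level of 4.07, as did 0 of the 20 mitosis and proliferation genes. The part of these markers in the metabolic differences was not tested.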

How the data were processed

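The 4 arrays, 1 per dose, were grouped by labelled dose. The authors deposited log2 intensities, 1 for each Entrez gene, with base 2 taken from their range (1.22 to 13.0). Labelling used an Affymetrix whole-transcript kit, per the labels' protocols. Partek is named as a tool, per the submitters' processing notes. How background, normalization and annotation were handled is not given in the sources used here. Arrays have no read depth, so their number limits the precision.

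Values were used as deposited. Of 25206 rows, 23185 were named by the platform table and 555 more by their Entrez ID in RefSeq (GRCm38.p6). Where both named a row, 0 symbols differed. The 1466 unnamed rows were left out. Differences between arrays were log2 values subtracted. In R 4.3.3, limma 3.58.1 (lmFit and eBayes, adjusted by Benjamini-Hochberg over all named genes) fitted irradiated against 0 Gy and a straight line in dose, after a test on simulated data. Members, lists and tests were chosen with earlier results of these data known. Genes were described on every array if they reached 1.5-fold, had one of the 10 widest or 5 narrowest ranges, or were paralogs of such genes, and from each other list, up to 4 genes above the median level with the widest range. Pgk1, Pkm, Pdhb, Dlat, Cs, Mdh1, Mdh2, Idh1 and Idh2 lie outside this rule, and their values are given to account for the members. Alternatives were 3 normalizations, a filter at the median gene mean, other thresholds, an intensity trend, a control made of the other 3 arrays' mean, the rank and square root of dose, and leaving out each array. Naming by the platform table alone was added after seeing the data.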

Additional observations from a re-analysis of the deposited data

How the results depend on the processing

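The counts of 4, 2 and 3 members at 1.5-fold or more from 0 Gy at 0.02, 0.1 and 0.5 Gy were the same under quantile normalization, median centring, cyclic loess and naming by the platform table alone. At a lower threshold of 0.32 log2 units they were 11, 6 and 7, at 2-fold 2, 1 and 1, and against the mean of the other 3 arrays 2, 1 and 1. The filter on low values left out Pgam1 and gave 3, 1 and 2. Against the mean of the other arrays, which holds the other irradiated arrays, Aldoc differed by 0.58, 0.87 and 0.10 at the 3 doses. Of 51 recomputed differences of the 5 genes, 46 stayed past 1.5-fold and 0 changed sign. Those that fell short were all against the mean of the other 3 arrays. They were Aldoc at 0.02 Gy (just short) and 0.5 Gy, and Pgam1 with 0.50, 0.26 and 0.12 at the 3 doses. The filter and the naming leave a gene's values unchanged, so its difference could not move under them. With limma, 0 members were called under the 8 alternatives for irradiated against 0 Gy (smallest adjusted p between 0.143 and 0.440, leaving out each irradiated array included) and the 11 for a line in dose (0.231 to 0.742, leaving out each of the 4 arrays included). The number of all genes called against 0 Gy was 0 under 7 of the 8 alternatives (each normalization, the filter and leaving out each irradiated array) and 314 with an intensity trend. No paired analysis was possible because each dose has 1 array.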
